A study of Homo sapiens and Mus musculus with 20 samples.

Results

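FOXD4 and its paralogs FOXD4L1, FOXD4L3, FOXD4L4, FOXD4L5 and FOXD4L6 are 6 single-exon human genes for forkhead transcription factors, and they were taken by name from the 20163 protein-coding genes of the GENCODE annotation on GRCh37. Each was described over its gene body with 100 kb on each side. The family was chosen by a measured value, since the site with the highest fold enrichment of full-length Satb1 lies near FOXD4L3, so the fold enrichment of full-length Satb1 around these genes is a description here and was not tested. The data were peak lists from MCF10A, an established human mammary epithelial line that lacks native Satb1. The 5 ChIP-seq lists came from MCF10A cells that carried a cumate-inducible lentiviral construct with eGFP fused to the C terminus of Satb1, precipitated with an antibody to GFP. They were full-length Satb1, deltaHD (Satb1 without its homeodomain), N-C1 (the N-terminal dimerization domain with the CUT1 domain), and full-length Satb1 in cells treated for 2 h with camptothecin, which inhibits topoisomerase I, or with ICRF-193, which inhibits topoisomerase II. The 2 ATAC-seq lists came from native MCF10A cells and from cells expressing Satb1. In all ChIP-seq lists Satb1 was ectopic. There was 1 list per condition, so no difference between lists could be set against a replicate error, no p-value is given, and values of different lists stand side by side without a ratio. The lists hold no expression values, so the identity of the cells was not checked here.

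Satb1 is a chromatin organizer that binds A/T-rich DNA through its CUT domains and homeodomain and is best known from thymocytes. Forkhead proteins bind DNA through a winged-helix domain, and those of the FOXD class act in the embryonic neural plate and other early tissues. The FOXD4 genes arose by segmental duplication, the copying of long blocks of a genome, and most copies lie in the pericentromeric blocks of chromosome 9. Blocks of this kind are nearly identical, which makes short reads hard to place.

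On GRCh37, FOXD4 lay at chr9:116231-118417 on the minus strand near the end of the short arm, and FOXD4L1 at chr2:114256242-114258727 on the plus strand. The other 4 copies lay on the long arm of chromosome 9. FOXD4L6 was at chr9:69199480-69202204, FOXD4L5 at chr9:70175707-70178815 and FOXD4L4 at chr9:70426623-70429731, all on the minus strand, and FOXD4L3 at chr9:70917783-70920000 on the plus strand. Global alignment of the gene bodies sorted them into 3 pairs of close sisters. FOXD4L3 and FOXD4L6 were 99.6% identical with 8 substitutions over 2218 aligned bases. FOXD4L4 and FOXD4L5 were 99.5% identical with 15 substitutions over 3109 bases. FOXD4 and FOXD4L1 were 97.9% identical with 29 substitutions over 2196 bases. The 15 pairs had a median identity of 89.2%, with a lowest value of 86.8%, and the coding sequences ranged from 92.4% to 99.8% identity. In coding sequence FOXD4L3 and FOXD4L6 were 98.6% to 98.7% identical to FOXD4L4 and FOXD4L5, beside 93.0% to 93.9% to FOXD4 and FOXD4L1. The gene bodies had the opposite order, at 86.8% to 88.9% and 94.9% to 95.8%. Blocks of at least 90% identity covered 182.7 kb of the FOXD4 window in FOXD4L1, 178.4 kb of the FOXD4L3 window in FOXD4L6 and 143.0 kb of the FOXD4L4 window in FOXD4L5. Pairs across FOXD4, FOXD4L1, FOXD4L3 and FOXD4L6 that were not sisters shared 143.0 to 148.9 kb, as much as FOXD4L4 and FOXD4L5 did. Pairs of FOXD4L4 or FOXD4L5 with these 4 copies shared 42.1 to 81.15 kb. Gaps in the reference took 60.1 kb of the FOXD4L5 window, 23.8 kb for FOXD4L6, 23.2 kb for FOXD4L4 and 17.7 kb for FOXD4L3, and none of the other windows.

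The sequences that carried most of the signal are shown for 200 bases at the full-length summit, on the strand of the gene, with matches to the Satb1 consensus YTAWTAR in capitals. The consensus is 7 letters, a C or T, then TA, then A or T, then TA, then A or G. It is its own reverse complement as a pattern, so a search of either strand finds the same matches, and matches may overlap. The first set is the A/T-rich site downstream of 4 copies. FOXD4L3 and FOXD4L6 carry it as a tandem pair, called proximal and distal here by their distance from the gene, and FOXD4L1 and FOXD4 carry 1 each. FOXD4L6 is not shown because the 400 bases at the FOXD4L3 summits were present in it at 100% identity.
FOXD4L3 proximal, chr9:70931471-70931670, + strand: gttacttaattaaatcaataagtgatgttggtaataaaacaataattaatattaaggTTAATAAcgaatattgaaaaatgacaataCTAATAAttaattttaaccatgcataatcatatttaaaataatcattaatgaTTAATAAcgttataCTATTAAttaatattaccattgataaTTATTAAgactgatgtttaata
FOXD4L3 distal, chr9:70935925-70936124, + strand: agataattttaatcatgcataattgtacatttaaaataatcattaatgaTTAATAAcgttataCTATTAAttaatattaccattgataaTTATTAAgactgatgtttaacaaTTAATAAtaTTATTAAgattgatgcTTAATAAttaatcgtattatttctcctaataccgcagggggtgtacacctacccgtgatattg
FOXD4L1, chr2:114268463-114268662, + strand: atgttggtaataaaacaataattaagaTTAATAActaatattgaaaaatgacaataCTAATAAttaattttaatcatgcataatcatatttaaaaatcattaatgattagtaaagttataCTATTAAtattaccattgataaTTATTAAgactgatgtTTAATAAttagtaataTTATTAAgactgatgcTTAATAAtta
FOXD4, chr9:105110-105309, - strand: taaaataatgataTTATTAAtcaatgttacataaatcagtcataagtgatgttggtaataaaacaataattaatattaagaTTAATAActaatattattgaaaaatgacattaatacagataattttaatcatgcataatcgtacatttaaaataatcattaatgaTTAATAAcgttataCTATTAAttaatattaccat
These 4 stretches held 5, 6, 7 and 4 matches and were 83.0%, 76.5%, 84.0% and 83.5% A/T. The second set is a site farther downstream of the same 4 copies, called the outer site here, which has 3 matches close together in a less A/T-rich surrounding (61.5% and 63% in the examples from FOXD4L3 and FOXD4L1).
FOXD4L3 outer, chr9:70949185-70949384, + strand: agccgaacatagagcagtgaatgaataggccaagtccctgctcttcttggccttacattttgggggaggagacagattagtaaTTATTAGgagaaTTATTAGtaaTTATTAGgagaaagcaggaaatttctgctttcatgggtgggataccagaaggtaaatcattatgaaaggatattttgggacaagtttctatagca
FOXD4L1 outer, chr2:114276726-114276925, + strand: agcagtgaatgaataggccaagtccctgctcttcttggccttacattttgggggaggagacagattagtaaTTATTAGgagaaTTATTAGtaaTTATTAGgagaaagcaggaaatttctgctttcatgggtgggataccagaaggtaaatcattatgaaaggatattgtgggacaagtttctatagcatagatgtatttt
The matches and the bases between them were the same in both. The third set is a site upstream of the copies and is shown with its values further on.

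All 6 copies had at least 1 full-length Satb1 peak in their window, beside 58.8% of all protein-coding genes measured in the same way. The windows held 25 full-length peaks, 5 each for FOXD4 and FOXD4L3, 4 each for FOXD4L4, FOXD4L5 and FOXD4L6, and 3 for FOXD4L1. The median over all protein-coding genes was 1 peak, and 10.4% of the genes had 4 or more. All 6 copies also had a peak in each of the other lists, beside 75.4% of genes for deltaHD, 76.5% for N-C1, 54.5% for camptothecin and 65.1% for ICRF-193. The 6 windows held 38 deltaHD, 52 N-C1, 30 camptothecin and 45 ICRF-193 peaks. None of the 5 lists had a peak on the gene body of any copy. Of the 25 full-length summits, 8 lay inside a protein-coding gene other than the FOXD4 copies, 4 inside a long noncoding RNA gene, 1 inside a pseudogene and 12 in no annotated gene.

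Peaks of the strongest 1% of the full-length list (228 peaks, fold enrichment of at least 40.4) lay in the windows of 5 of the 6 copies, beside 1.62% of all protein-coding genes. The copy without one was FOXD4L5. For deltaHD it was 4 of 6 copies beside 3.19% of genes, for N-C1 5 of 6 beside 4.06%, for camptothecin 4 of 6 beside 1.74% and for ICRF-193 5 of 6 beside 2.2%. FOXD4, FOXD4L1, FOXD4L3 and FOXD4L6 were among them in every list, and FOXD4L4 was added in 3 lists. The family was chosen because the strongest full-length peak lies near one of its genes, so the full-length count follows in part from that choice. The windows are copies of shared blocks, so the 6 copies are not independent of each other and these counts are a description. The 25 full-length peaks fell into separate ranges of fold enrichment, which is the height of the pileup over the local background. There were 7 between 37.9 and 59.0, then 4 at the outer site between 19.7 and 23.97, and the remaining 14 lay between 4.45 and 9.11. The list as a whole had a median of 7.32.

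**Figure D1:**
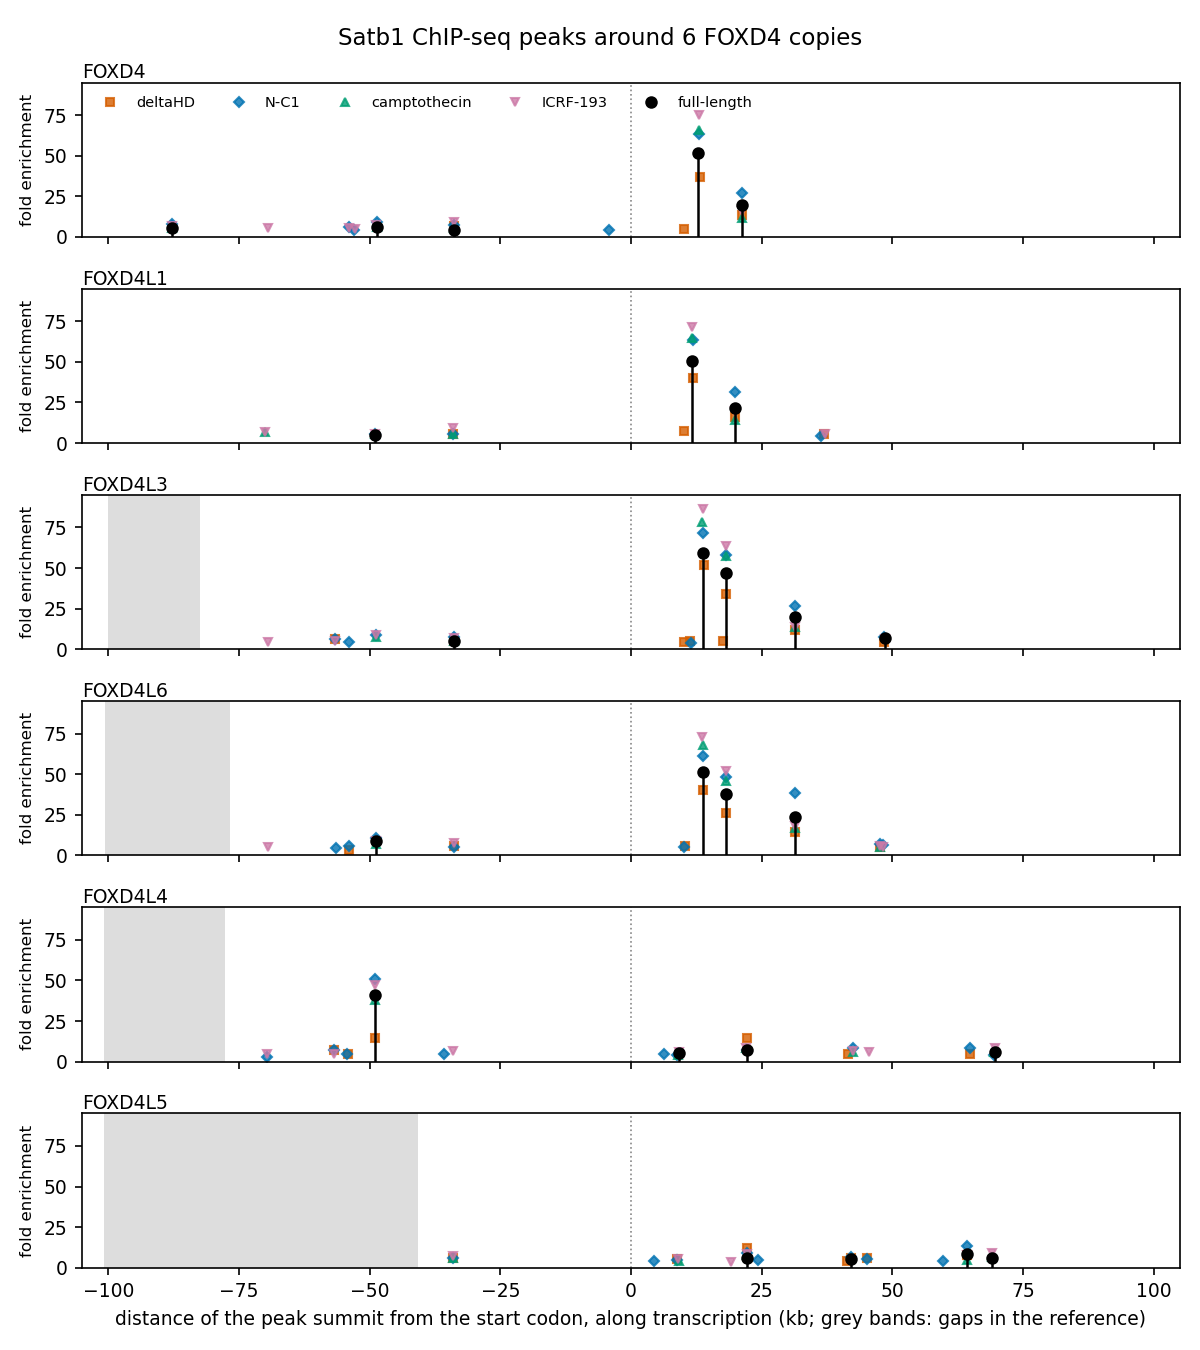
Each panel is 1 FOXD4 copy. The x axis gives the distance of each peak summit from the start codon along transcription in kb, the y axis the fold enrichment, black lines full-length Satb1, colored symbols the other 4 lists, and grey bands gaps in the reference. FOXD4, FOXD4L1, FOXD4L3 and FOXD4L6 have their tall peaks 11.7 to 31.4 kb downstream, FOXD4L4 has its tall peak at -48.9 kb, and FOXD4L5 has no full-length peak above 8.42.

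The strongest full-length peak of the whole list was the proximal site of FOXD4L3, 13.7 kb downstream of the start codon at chr9:70931006-70932240, inside the long noncoding RNA gene LINC03025. Its fold enrichment was 59.0 for full-length Satb1, 52.1 for deltaHD, 71.3 for N-C1, 78.3 after camptothecin and 86.6 after ICRF-193. It ranked 1 in the full-length, camptothecin and ICRF-193 lists, 42 in the deltaHD list and 59 in the N-C1 list. Its 400 bases at the peak midpoint held 10 consensus matches. The mean was 2.75 over all 22877 full-length peaks and 7.36 over the strongest 1% of them.

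The proximal site of FOXD4L6, 13.7 kb downstream at chr9:69187203-69188502, was its closest relative. It had a fold enrichment of 51.1 for full-length Satb1, 40.1 for deltaHD, 60.9 for N-C1, 67.8 after camptothecin and 72.8 after ICRF-193. Over the 1235 bases of the FOXD4L3 peak the sites differed by 3 substitutions, T798C, T880G and T1118C (the FOXD4L3 base first, position 1 at the first base of its peak), and 1 gap base, an identity of 99.7%. The 400 bases at either full-length summit were the same in both genes.

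The distal site of FOXD4L3, 18.2 kb downstream at chr9:70935266-70936591, reached 47.2, 34.3, 58.1, 57.3 and 63.7 in the order full-length, deltaHD, N-C1, camptothecin and ICRF-193. The distal site of FOXD4L6, 18.1 kb downstream at chr9:69182875-69184193, reached 37.9, 26.1, 48.1, 46.1 and 52.1. These sites differed by 2 substitutions over 1326 bases, A309G and G495A, with the FOXD4L3 base first and position 1 at the first base of the FOXD4L3 distal peak. Within each gene the proximal and distal sites were 90.05% (FOXD4L3) and 90.11% (FOXD4L6) identical, gaps counted as differences. The proximal value was above the distal value in every list for both genes.

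FOXD4L1 had 1 such site, 11.7 kb downstream at chr2:114267860-114269146 and in no annotated gene. Its values were 50.3, 40.4, 63.3, 64.6 and 71.2 in the same order of lists. It was 94.3% identical to the proximal site of FOXD4L3 and 91.7% to the distal site. FOXD4 also had 1 site, 12.9 kb downstream at chr9:104630-105827 in a long noncoding RNA gene without a symbol. Its values were 51.3, 36.8, 63.3, 66.02 and 75.1, and it was nearer to the distal site of FOXD4L3, at 97.6% identity, than to the proximal site, at 89.8%. Of the 6 A/T-rich sites, the proximal site of FOXD4L3 had the highest value and the distal site of FOXD4L6 the lowest in each of the 5 lists. The FOXD4L3 proximal site was picked as the full-length maximum, so its place in that list was fixed by the choice. The FOXD4L3 and FOXD4L6 sites are the same over the 400 bases at their full-length summits. Reads there could not be assigned to 1 copy, so the order of these copies is given as it stands in the lists. The full-length values of FOXD4, FOXD4L6 proximal and FOXD4L1 lay within 50.3 to 51.3, and without replicate lists their order cannot be set against an error. These 6 sites held 10 to 15 consensus matches in 400 bases, a number of at least 10 that was reached by 0.577% of all full-length peaks and by 0.147% of 2724 tiles of 400 bases cut from the 6 windows. The tiles take in the sites themselves, and the 4 tiles that reached 10 lay in the windows of FOXD4, FOXD4L3 and FOXD4L6. The tiles are thus not a background separate from the sites. At least 1 match was found in 96.6% of all full-length peaks and in 27.8% of the tiles.

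FOXD4L4 and FOXD4L5 had no copy of this site. The 14.5 kb from 5 kb before the proximal to 5 kb after the distal summit of FOXD4L3 was found whole in the FOXD4L6 window, to 23.8% in the FOXD4 window and to 15.8% in the FOXD4L1 window, and to 0% in the windows of FOXD4L4 and FOXD4L5. Neither of these windows has a gap downstream of the gene in the reference. The highest full-length value downstream of FOXD4L4 was 7.46 and that of FOXD4L5 was 8.42.

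The outer site lay 19.99 kb downstream of FOXD4L1, 21.2 kb downstream of FOXD4, 31.3 kb downstream of FOXD4L6 and 31.4 kb downstream of FOXD4L3, where it is inside PGM5, a phosphoglucomutase-related gene of cell adhesion sites. Relative to the FOXD4L6 sequence, the 400 bases were 99.5% identical in FOXD4L3, 98.7% in FOXD4L1 and 98.2% in FOXD4, and the motif count was 3 in each. The full-length values were 23.97 for FOXD4L6, 21.9 for FOXD4L1, 20.02 for FOXD4L3 and 19.7 for FOXD4. The N-C1 values were 38.6, 31.2, 26.8 and 26.8 in the same order, and the deltaHD values 14.7, 15.9, 11.8 and 13.7. After camptothecin they were 17.2, 14.4, 13.8 and 11.9, and after ICRF-193 18.0, 19.6, 13.9 and 16.1. At all 4 outer sites N-C1 had the largest value of the 5 lists, whereas at all 6 A/T-rich sites ICRF-193 had it. The lists may differ in scale, so these orders are given as they stand in the files. A further copy of the outer site, 99.0% identical to that of FOXD4L6, lay outside the windows at chr9:68832180-68832583 with a full-length value of 22.9.

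**Figure D2:**
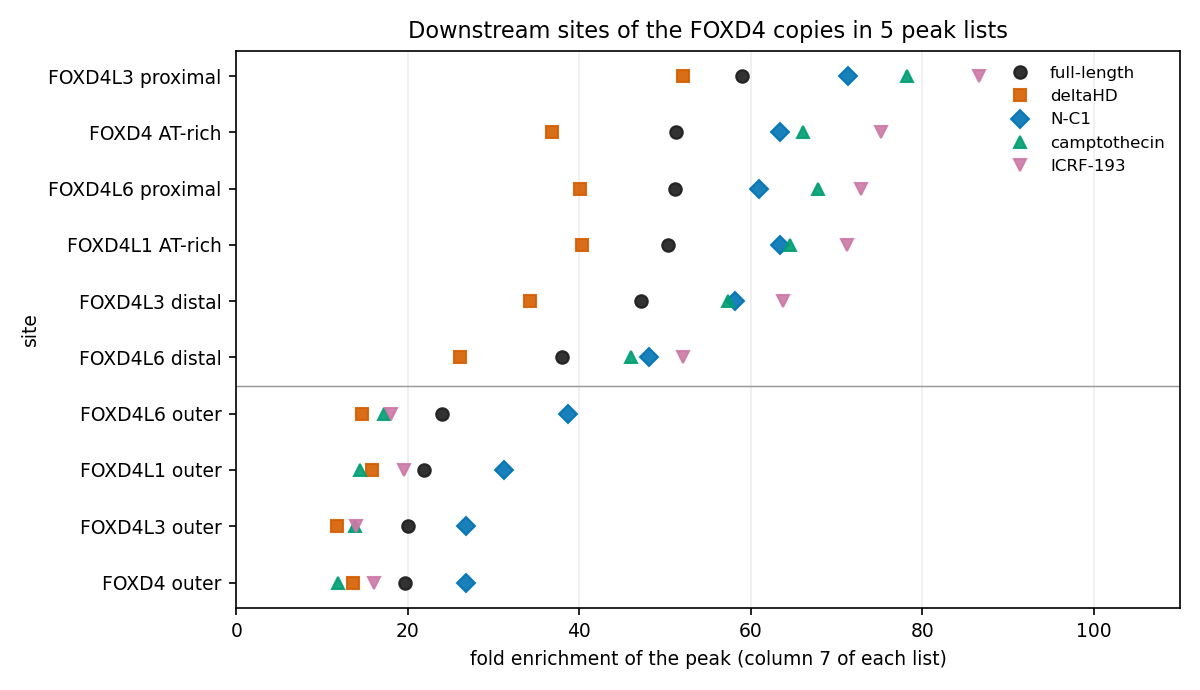
The x axis gives the fold enrichment, the y axis the 6 A/T-rich sites (above the line) and the 4 outer sites (below it), and each symbol is 1 of 5 peak lists with 1 value per site. FOXD4L3 proximal, which was picked as the full-length maximum, has the highest value in every list. The A/T-rich sites run from 26.1 to 86.6 against 11.8 to 38.6 for the outer sites.

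Upstream of the genes a site about 49 kb from the start codon, inside the CBWD genes (also called ZNG1) that lie beside the copies and encode GTPases of zinc handling, was present in 5 of the 6 members. In FOXD4L5 the equivalent position falls in the reference gap. The site is shown here because its copies differ in length at the summit. In FOXD4L4 the peak measured 652 bases, and the same interval measured 553 bases in FOXD4L6 and FOXD4L3 and 555 bases in FOXD4 and FOXD4L1. The shorter copies had 97 to 99 bases fewer. In the alignment with FOXD4L6, most of these fell in runs of 63 and 23 bases that were 90.5% and 91.3% A/T in FOXD4L4. Outside the alignment gaps the copies were 98.6% to 99.1% identical to FOXD4L4. The sequence across the extra bases, on the strand of each gene, with consensus matches in capitals, reads as follows.
FOXD4L4 upstream, chr9:70477731-70477933, - strand: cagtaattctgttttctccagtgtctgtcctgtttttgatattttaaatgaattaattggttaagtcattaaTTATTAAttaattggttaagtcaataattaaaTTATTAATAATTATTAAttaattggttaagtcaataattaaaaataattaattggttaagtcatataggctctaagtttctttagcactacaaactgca
FOXD4L6 upstream, chr9:69250227-69250338, - strand: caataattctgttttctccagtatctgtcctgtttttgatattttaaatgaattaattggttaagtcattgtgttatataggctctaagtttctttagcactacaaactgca
FOXD4L1 upstream, chr2:114207957-114208067, + strand: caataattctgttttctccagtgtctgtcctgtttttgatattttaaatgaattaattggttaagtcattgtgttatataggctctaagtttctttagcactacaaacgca
This stretch holds 4 consensus matches in FOXD4L4 and 0 in the others shown. It repeats the unit aattaattggttaagt, which occurs 4 times in the FOXD4L4 interval and 1 time in each of FOXD4L6, FOXD4L3, FOXD4 and FOXD4L1. The interval as a whole held 5 matches in FOXD4L4 and 1 in each of the others. FOXD4L2, a further copy that is not among the 6, had the FOXD4L4 sequence at 100% identity over the interval, at chr9:42668805-42669456.

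The full-length value at this site was 41.3 in FOXD4L4 and 38.6 in FOXD4L2. It was 9.11 in FOXD4L6, 6.37 in FOXD4 and 5.13 in FOXD4L1, and no full-length peak was called there in FOXD4L3. The N-C1 values were 50.98 and 50.5 in FOXD4L4 and FOXD4L2, beside 10.9 in FOXD4L6, 9.17 in FOXD4, 8.65 in FOXD4L3 and 5.52 in FOXD4L1. After camptothecin they were 38.1 and 38.5, beside 7.54 in FOXD4L3, 7.36 in FOXD4L6, 6.10 in FOXD4 and 5.55 in FOXD4L1. After ICRF-193 they were 47.3 and 46.9, beside 9.09 in FOXD4L6, 8.50 in FOXD4L3, 7.33 in FOXD4 and 5.77 in FOXD4L1. In the deltaHD list the site was called only in FOXD4L4 (14.3) and FOXD4L2 (15.01). In the full-length, N-C1, camptothecin and ICRF-193 lists the 2 longer copies lay above every shorter copy with a peak. The deltaHD list had no peak in a shorter copy to compare. FOXD4L4 and FOXD4L2 have the same sequence over the interval, so their values are not 2 separate observations. No ATAC-seq peak of either list touched the site in any copy. The comparison is between fixed reference sequences in 1 cell line that also differ elsewhere in the duplicated block, and the part of the extra bases in the difference was not tested.

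**Figure D3:**
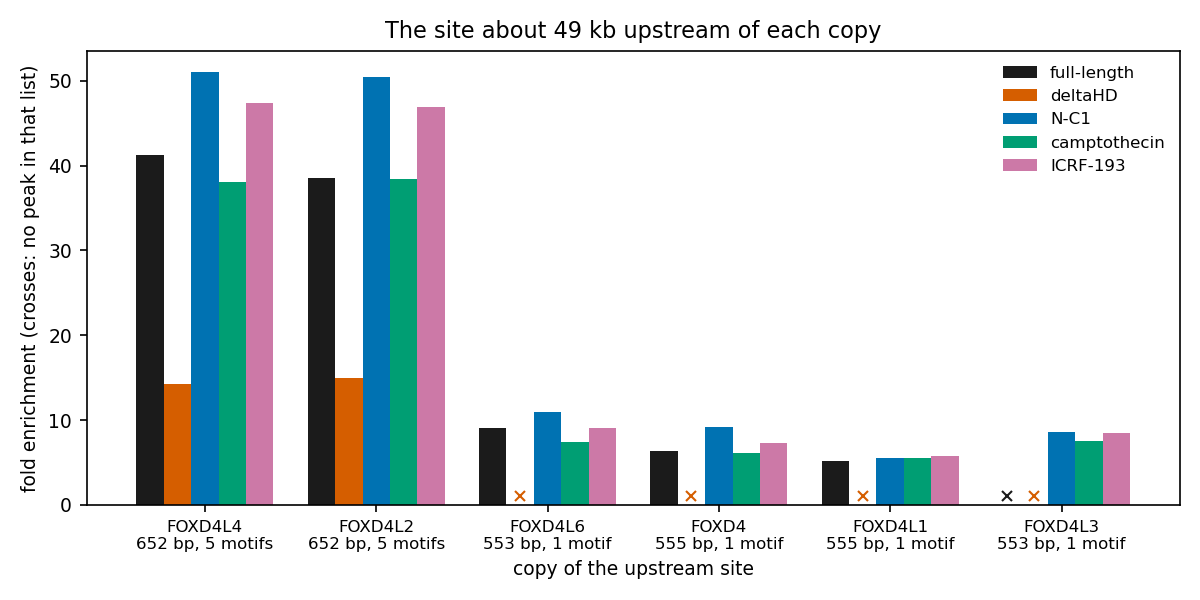
Bars give the fold enrichment at the site about 49 kb upstream of each copy in the 5 peak lists, and crosses mark lists without a peak there. FOXD4L4 and FOXD4L2, with 652 bases and 5 consensus matches, reach 14.3 to 50.98, and the 4 copies with 553 or 555 bases and 1 match stay at or below 10.9.

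Merging overlapping peaks of the 5 lists gave 66 sites in the 6 windows. Of these, 16 (24.2%) were in all 5 lists and 20 (30.3%) in a single list, beside 21.0% and 35.9% of the 76660 sites made in the same way over the whole lists. The sites in a single list were 9 in N-C1, 6 in ICRF-193 and 5 in deltaHD, which are the 3 longest lists, and none in the other lists. Of the 25 full-length peaks, 24 (96%) overlapped an ICRF-193 peak, 23 (92%) an N-C1 peak, 23 a camptothecin peak and 18 (72%) a deltaHD peak. Over all 22877 full-length peaks the shares were 92.9%, 95.2%, 81.7% and 88.6%. Seen from the other lists, 50% of the 38 deltaHD peaks, 44.2% of the 52 N-C1 peaks, 76.7% of the 30 camptothecin peaks and 53.3% of the 45 ICRF-193 peaks overlapped a full-length peak. Over the whole lists, which differ in length, these shares were 39.9%, 34.6%, 76.1% and 56.7%. The 6 A/T-rich sites, the 4 outer sites and the upstream site of FOXD4L4 were 11 of the 16 sites in all 5 lists.

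A weaker site about 34 kb upstream of the start codon was the one peak position whose sequence was present in all 6 copies and called in each of them in at least 1 list. Its 400 bases were 98.5% to 100% identical to those of FOXD4L3 and held 5 consensus matches in every copy. In the ICRF-193 list it was called in all 6, at 9.29 in FOXD4L1, 9.09 in FOXD4, 7.72 in FOXD4L6, 7.53 in FOXD4L5, 6.75 in FOXD4L3 and 6.36 in FOXD4L4. In the full-length list it was called in FOXD4L3 (5.41) and FOXD4 (4.45). In FOXD4L4 it was in the ICRF-193 list alone. At these fold values a site missing from a list may lie just under the peak threshold, so absence from a list is not a measure of lower signal. Sites about 54, 57 and 69 kb upstream were present in the sequence of every copy but FOXD4L5, whose reference gap spans them. They had values of 2.90 to 7.38 where called and none in the full-length list.

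**Figure D4:**
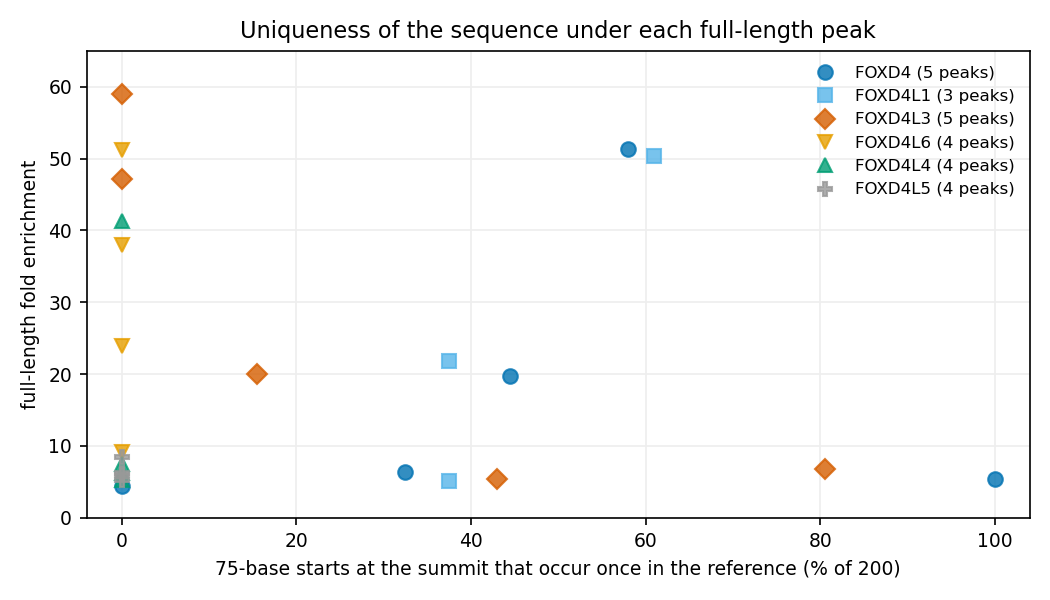
Each symbol is 1 of the 25 full-length peaks of the 6 windows. The x axis gives the percent of 200 start positions at the summit whose 75 bases occur once in the reference, the y axis the fold enrichment, and 15 peaks sit at 0%.

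Most of these sequences could not be told apart by short reads. Of 200 start positions of 75 bases centred on the summit, none was unique in the reference for 15 of the 25 full-length peaks, and all were unique for 1 peak, the FOXD4 site at -87.8 kb (fold enrichment 5.39). Over all 22877 full-length peaks, 93.6% had only unique starts and 2.96% had fewer than 50% unique. The unique share was 0% at the proximal and distal sites of FOXD4L3 and FOXD4L6 and at the upstream site of FOXD4L4. It was 58.0% at the A/T-rich site of FOXD4 and 61.0% at that of FOXD4L1. The whole proximal peak of FOXD4L3 had 21.5% unique starts and that of FOXD4L6 24.2%. Over whole windows, unique starts took 43.4% for FOXD4, 41.4% for FOXD4L1, 31.5% for FOXD4L3, 21.0% for FOXD4L6, 10.2% for FOXD4L5 and 3.91% for FOXD4L4. The paper's methods name default alignment settings, under which the aligner reports a read with several equally good matches at 1 of them, and whether such reads were removed before peak calling is not given in the sources used here. Thus, at the full-length summits of their proximal and distal sites, FOXD4L3 and FOXD4L6 cannot be told apart by copy. The same holds for FOXD4L4 and FOXD4L2 at the upstream site. Unique starts were also 0% at that site at the full-length summit of FOXD4L6 and the N-C1 summit of FOXD4L3. Other summits were more unique, with 80.5% at the full-length peak 48.5 kb downstream of FOXD4L3 and 50.5% at the deltaHD summit of FOXD4L3 proximal.

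The 400 bases at the strongest summit had 3 copies in the reference at 90% identity, counting the site itself, and these were the sites of FOXD4L3, FOXD4L6 and FOXD4L1. A search with the whole peak of 1235 bases at 80% identity and 80% coverage, added after the data had been seen, found 37 copies, 35 on 10 chromosomes and 2 on an unplaced contig. Every one of the 35 chromosomal copies overlapped a peak in each of the 5 lists. The 6 A/T-rich sites of the FOXD4 windows were among them, and the other 29 were 81.2% to 88.6% identical to FOXD4L3 proximal. The full-length values of those 29 ran from 42.8 to 55.96 with a median of 50.7, beside 37.9 to 59.0 for the 6 FOXD4 sites. The search began from the site that was strongest in the full-length list, so high full-length values of its copies follow in part from that choice. The N-C1 values of the 29 ran from 32.1 to 72.7 with a median of 58.4. The deltaHD values of the 29 ran from 6.13 to 48.3 with a median of 25.9, beside 26.1 to 52.1 for the 6 FOXD4 sites. The 35 copies held 11 to 19 consensus matches each. Of the 35, 1 lay inside a protein-coding gene, KRTAP5-11, and 25 lay in no annotated gene.

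**Figure D5:**
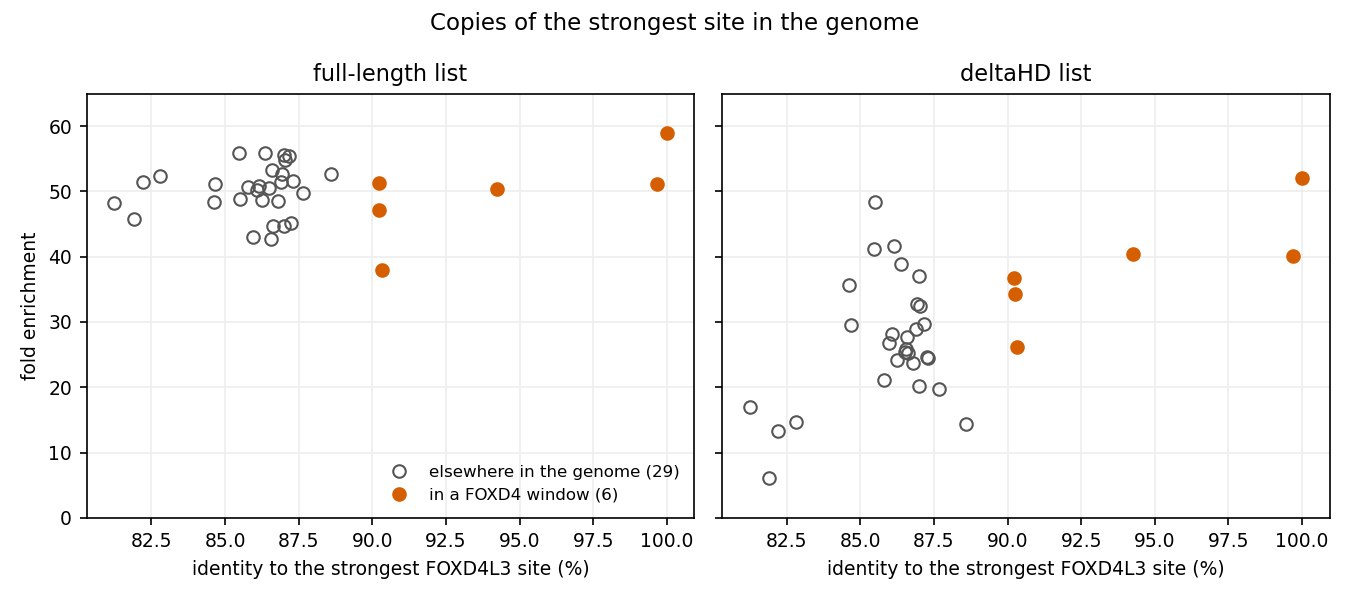
Each point is 1 of 35 chromosomal copies of the strongest site. The x axis gives the identity to FOXD4L3 proximal in percent, the y axis the fold enrichment in the full-length list (left) and the deltaHD list (right), and filled points are the 6 sites in FOXD4 windows. All copies lie between 37.9 and 59.0 in the full-length list and spread from 6.13 to 52.1 in the deltaHD list.

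Chromatin accessibility was read from the ATAC-seq lists. All 6 copies had ATAC-seq peaks in their windows, beside 99.3% of all protein-coding genes in either list. The windows held 12 to 27 peaks in native cells and 13 to 29 in cells with Satb1, with a median of 16 in both, and the median over all protein-coding genes was 23 and 27. The strongest ATAC-seq peak in native cells stood upstream of 5 copies, about 52 kb from the start codon in FOXD4 (fold enrichment 31.9) and FOXD4L1 (31.4) and about 60 kb in FOXD4L3 (42.6), FOXD4L6 (41.2) and FOXD4L4 (27.9). In FOXD4L5, whose reference has a gap there, it stood 83.4 kb downstream (17.02). In native cells no ATAC-seq peak lay on the gene body of any copy. In cells with Satb1 there was a low peak on FOXD4 (fold enrichment 1.83), FOXD4L3 (1.89) and FOXD4L6 (1.99), and none on the other copies. An ATAC-seq peak of native cells was found at 2 of the 25 full-length sites (8%, exact 95% Clopper-Pearson interval 0.984% to 26.0%) and one of cells with Satb1 at 6 (24%, 9.36% to 45.1%). Over the whole full-length list the shares were 3.42% and 4.64%, and over its strongest 1% they were 4.39% and 21.9%. With the summit required inside the ATAC-seq peak, the members kept 24% in cells with Satb1 and fell to 4% in native cells, and the strongest 1% of the list fell to 4.83% and 0.877%. These intervals cover counting error only and treat the 25 peaks as independent. Peaks in duplicated windows, or under the same ATAC-seq peak, are not independent, so the intervals are too narrow. The 6 were the 6 A/T-rich sites. The ATAC-seq peaks on them had fold enrichments of 2.18 to 3.46 and widths of 2622 to 10905 bp, and each of the tandem pairs of FOXD4L3 and FOXD4L6 lay under a single one. In native cells the overlap was found at FOXD4L1 (2.20) and at the distal site of FOXD4L6 (3.28). The native list held peaks down to a fold enrichment of 2.14, with a median of 4.39. The longer list of cells with Satb1 went down to 1.77, with a median of 2.93. A site missing from the native list may thus lie just under its threshold. The full-length summits of the FOXD4L3 and FOXD4L6 sites had 0% unique starts. An ATAC-seq call there may thus not be resolved by copy. Over the 35 chromosomal copies, 3 overlapped an ATAC-seq peak in native cells and 19 in cells with Satb1. The outer and upstream sites had no ATAC-seq peak in either list.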

How the data were processed

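Satb1 ChIP-seq was analysed in 5 peak lists and ATAC-seq in 2 peak lists of MCF10A cells, each condition having a single list. Of 20 samples, 13 were not analysed here. Per the labels and the paper's methods, the authors trimmed reads with cutadapt, aligned them to hg19 with Bowtie2 and called peaks with MACS2, ChIP-seq against input DNA and ATAC-seq as broad peaks. Alignment used default settings, reads were 75 bases long, and the methods give 1 depth range for the ChIP-seq libraries together. A version is stated for the trimmer alone. The depth of each list, whether reads with several matches were removed and whether duplicates were pooled are not given in the sources used here. The deposited values are the fold enrichment (a linear ratio of pileup to local background), the −log10 q-value and the summit offset, as MACS2 wrote them for the authors. The ChIP-seq lists hold peaks down to a −log10 q of 1.32, so weak calls are included. Depth changes the number of peaks called, so lists were not ranked by number.

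Windows were the gene body and 100 kb on each side. Gene positions came from GENCODE release 44 lifted to GRCh37, the sequence of hg19, where FOXD4L4 and FOXD4L6 are entries carried over from an earlier annotation. A peak counted with 1 bp inside. Named were the 6 members with all their peaks, FOXD1, FOXD2 and FOXD3 and neighbouring genes as counts, and genes that hold a described site. The members and lists were chosen with earlier results of these data known. Matches to YTAWTAR were counted in 400 bp at the peak midpoint. Copies were found with BLAST 2.17.0, gene bodies were aligned with Biopython 1.88, and 75-base starts were counted over the reference. Counting functions were tested on simulated data. No test between conditions was run. Alternatives changed the flank, threshold, overlap, motif, search and read length. Python 3.11.15, pandas 2.3.3, scipy 1.17.1 and pysam 0.24.0 were used.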

Additional observations from a re-analysis of the deposited data

How the results depend on the processing

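Of 72 values recomputed under another setting, 56 stayed within 1.5 times the reported count or within its interval. The number of copies with at least 1 peak, which cannot exceed 6, stayed at 6 in the ChIP-seq lists with flanks of 50 and 250 kb and with both thresholds, and in the ATAC-seq lists with a flank of 50 kb and a −log10 q of at least 5. With a flank of 250 kb the FOXD4L4 window overlaps those of FOXD4L5 and FOXD4L3. The windows then held 42 full-length, 64 deltaHD, 100 N-C1, 56 camptothecin and 80 ICRF-193 peaks. Counting only peaks with a unique 75-base start at the summit, a setting added after seeing the data, left 10 full-length, 18 deltaHD, 23 N-C1, 12 camptothecin and 19 ICRF-193 peaks. At the strongest site the narrower consensus CTAATAR, searched on either strand, matched 1 time, and YTAWTAR matched 6 times in 150 bp against 10 in 400 bp. Its copies numbered 31 at 50% coverage and 80% identity and 37 with the whole peak as the query. The unique share at that site was 21.5% over the whole peak against 0% at the summit. The median identity between copies was 97.9% over aligned blocks of the windows against 89.2% for the gene bodies.

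No paired analysis was possible because there was 1 list per condition and no replicate number. The paper reports that its genomics experiments were done in duplicate, with highly correlated ChIP-seq replicates. The lists used here give no separate values for the duplicates. Reads from near-identical copies limit which copy a value belongs to, the depth is known as a range over the libraries and not for each list, and a site under the peak threshold is not seen.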

Other observations

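A site about 10 kb downstream of the start codon was called for deltaHD in FOXD4 (4.99), FOXD4L1 (7.34), FOXD4L3 (4.43) and FOXD4L6 (6.13), and in no full-length, camptothecin or ICRF-193 list. N-C1 had it in FOXD4L6 alone (5.18). It held 0 consensus matches in 400 bases in all 4 copies, whose sequences were 98.5% to 100% identical. A site about 48 kb downstream of FOXD4L3 and FOXD4L6 and 37.1 kb downstream of FOXD4L1 was called in the full-length list in FOXD4L3 alone (6.80).

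FOXD4L4 and FOXD4L5 shared weak sites downstream, which are not particular to this pair. About 22 kb downstream, both had a peak in all 5 lists, with the deltaHD value the largest in each, at 14.3 for FOXD4L4 and 12.2 for FOXD4L5, beside full-length values of 7.46 and 5.96. The 400 bases there had 30 copies in the reference at 90% identity. About 69 kb downstream, both had a full-length value of 6.23, and the sequence had 24 copies.

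Of the relatives that were not duplicated in this way, FOXD3 had 2 full-length peaks in its window (highest 19.9) and FOXD1 and FOXD2 had none. Of 11 neighbours looked up, 7 were matched by name, and all 7 had a full-length peak, beside 58.8% of protein-coding genes. One of them, FOXD4L2, is itself a copy. The windows of CBWD5, CBWD6, CBWD7, PGM5 and DOCK8 take in sites of the copies and share their peaks. Only the KANK1 window lay apart from those of the copies, so the 7 are not independent of the copies. CBWD1, CBWD2 and CBWD3 stand in the annotation as ZNG1A, ZNG1B and ZNG1C, and their windows held 5, 3 and 5 full-length peaks.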
